A study of Mus musculus with 12 samples.

Results

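The broad CpG islands described here are the longest stretches of probes on a mouse CpG island array. Probes on chromosomes 1 to 19 (mouse build mm9) were joined into a locus wherever the gap between neighbours was at most 1000 bp, and a locus was called broad if it spanned 3000 bp or more from the start of its first probe to the end of its last. Of 14580 loci on the array, 14178 lay on these chromosomes and 100 (0.686% of all loci) were broad. The selection left out 4 windows on chromosomes 2, 6, 11 and 15, which held 65 loci, of which 0 reached 3000 bp. Length alone chose the members, and no methylation value was used. A CpG island is a stretch of DNA that keeps a high density of CpG dinucleotides, and many islands overlap the start of a gene. Most islands at gene starts are free of methylation in normal cells, whereas islands at imprinted genes and on the inactive X chromosome can carry it on a single allele. Long islands are often found at genes that control development, and methylation can differ between the middle of an island and its flanks.

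The study compared mouse embryonic stem (ES) cell lines that share their chromosomes and differ in mitochondrial DNA (mtDNA). All 4 lines came from CC9.3.1, a line from a 129SvEv-Gpi1c(129S6) embryo, whose cells had been depleted of mtDNA and fused with enucleated cytoplasts of a donor. The mtDNA was that of Mus musculus in CC9mus, Mus spretus in CC9spretus, Mus terricolor in CC9dunni and Mus pahari in CC9pahari. Each haplotype is represented by a single line. The mtDNA removed from CC9.3.1 was replaced by its own type in CC9mus, the control for the making of the lines. The cells were grown on mitomycin C-treated embryonic fibroblasts and kept for 48 h without these feeder cells before use, and neither ES cell identity nor the share of remaining feeder cells can be checked with these arrays. DNA bound by an antibody to 5-methylcytosine (methylated DNA immunoprecipitation, MeDIP; the IP fraction) carried Cy5 and the input DNA carried Cy3 on each of 12 arrays, 3 per line, with no exchange of dyes. The replicates are described as biological, but no source states that those of a line came from separate cultures, so p-values measure the spread between these samples, which may be technical.

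The level of a locus on an array is the mean over its probes of the log2 ratio of IP to input, after the ratios of the array were centred on their median. A level of 0 is therefore that of the median probe of the array, a level of 1 is a doubling of the ratio, and a change shared by most probes is removed by the centring. The files pair no probe with a gene, and no annotation on mm9 was used here, so loci are named by position. The edges of a locus are those of its probes, and the CpG island itself may reach further or may be interrupted in a gap.

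The 100 broad loci spanned 3006 to 6400 bp, with a median of 3377 bp and 363882 bp in all. There were 18 loci of 4000 bp or more and 6 of 5000 bp or more. They held 2372 probes, 2.69% of the 88321 probes with a position, and 12 to 40 probes each with a median of 23.5. The median gap between neighbouring probes was 77 bp. In 54 loci no gap exceeded 500 bp, in 37 there was 1 such gap and in 9 there were 2 or 3. Broad loci were found on all 19 chromosomes. Chromosome 11 had 13 (1.06% of its loci), chromosome 8 had 11 (1.33%) and chromosomes 2 and 5 had 9 each, while chromosomes 6, 10, 13, 18 and 19 had 2 each. In 7 cases neighbouring broad loci lay within 1 Mb of each other, the closest being chr2:174122729-174126550 and chr2:174152721-174156700 at 26170 bp.

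The arrays differed in spread, and CC9mus most of all. Across the 100 broad loci the SD of the level was 0.22 on CC9mus replicate 1, 0.92 on replicate 2 and 1.53 on replicate 3, against 0.57 to 0.81 on the 9 other arrays. The median level of broad loci was 0.01, −0.01 and 0.61 on the CC9mus arrays and lay between −0.28 and 0.08 on the others. Among the 2372 probes of broad loci, the share with an IP signal well above background was 98.6%, 76.5% and 90.6% on the CC9mus arrays and 79.4% to 96% elsewhere, and that of the input signal was 92.5% to 99.8% on the 12 arrays. Ratios above 2 were found for 0.0843%, 12.9% and 29.6% of these probes on the CC9mus arrays and for 2.07% to 6.49% on the others, and ratios below −2 for 0%, 12.7% and 7.2% against 0.0422% to 7.5%. Over the 3 arrays of a line, the median SD of a broad locus was 0.50 in CC9mus, 0.22 in CC9spretus, 0.15 in CC9dunni and 0.09 in CC9pahari. There were 8 slides, with scans on 5 days in 2 periods. The scans of CC9mus were all of the later period, on a day of their own, and the other lines had replicates 1 and 2 in the earlier period and replicate 3 in the later, so scan day and line cannot be told apart for CC9mus. Replicates 1 and 2 shared a slide in CC9dunni, CC9pahari and CC9mus, and those of CC9mus still differed in spread. With 3 arrays per line, their number limits precision.

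Most broad loci lay near the median of the array in each line. The mean of the 4 line means had a median of 0.00 over the 100 loci and a range of −0.74 to 4.00, with a 10th percentile of −0.38 and a 90th of 0.60. Over all 14580 loci the median was −0.03 and the 10th and 90th percentiles were −0.65 and 1.32. There were 94 broad loci between −1 and 1, against 85.6% of all loci, and 6 lay above 1 (12.5% of all loci) and 3 above 2 (7.05% of all loci). No broad locus had a level below −1, where 1.87% of all loci lay. Levels of longer loci average over more probes, with a median of 3 under 500 bp, 6 at 500 to under 1000 bp and 23.5 in broad loci. Averaging over more probes can narrow the range of levels, and its part in these shares was not tested. Short loci made up most of the high levels on the array. Of the 4732 loci under 500 bp on chromosomes 1 to 19, 25.8% had a level above 1, compared with 6.79% of the 6081 loci of 500 to under 1000 bp, 3.96% of the 2881 loci of 1000 to under 2000 bp and 4.69% of the 384 loci of 2000 to under 3000 bp. Among the 100 broad loci themselves, level and length were unrelated in rank (Spearman's rho = −0.00119 over 100 loci, as a description). By line, the loci with a mean above 1 numbered 23 in CC9mus, 5 in CC9spretus, 6 in CC9dunni and 4 in CC9pahari, against 22.5%, 11.3%, 11.6% and 10.6% of all loci. The count of CC9mus rested on replicate 3, being 6 without it (13.8% of all loci), 26 without replicate 2 (22.7%) and 33 without replicate 1 (27.3%), while it stayed at 4 to 6 in the other lines with 1 of their arrays left out (9.47% to 12.9%). The line means of the broad loci ranked most alike in CC9spretus and CC9dunni (rho = 0.904 over 100 loci), followed by CC9spretus and CC9pahari (0.871) and CC9dunni and CC9pahari (0.828), and less alike in CC9mus and CC9spretus (0.687), CC9pahari (0.578) or CC9dunni (0.555). Over all loci the order was not the same, with 0.916 for CC9spretus and CC9pahari, 0.905 for CC9spretus and CC9dunni, 0.899 for CC9dunni and CC9pahari and 0.741 to 0.806 for the pairs with CC9mus.

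The probes of a locus were also compared with each other, where their response cannot be told apart from methylation. Within a broad locus, the SD between probes of the mean of the 4 lines was 0.716 in the median and ran from 0.371 to 1.67, and the median was as large in loci of 1000 to under 2000 bp (0.711) and of 2000 to under 3000 bp (0.719). At 88 of the 100 loci at least 1 probe had a mean above 1, at 69 at least 1 probe had a mean below −1, and 59 held both, against 47.3%, 41.9% and 14.4% of all loci and 74%, 65.9% and 46.1% of those of 2000 to under 3000 bp, which held fewer probes. Of the probes of broad loci, 14.4% had a mean above 1 and 10.6% below −1, against 16.6% and 12.5% of all probes. A mean above 2 was found for 77 probes in 15 loci (3.25%, against 5.18% of all probes), and 64 of the 77 lay in the 4 loci with the highest levels.

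At the 4 broad loci with the highest levels, every array was above 0. At chr17:39980411-39983633 (3223 bp, 19 probes) the level was 0.80, 2.94 and 6.0 on CC9mus replicates 1 to 3, 2.97, 4.29 and 1.93 in CC9spretus, 4.86, 4.95 and 3.53 in CC9dunni and 5.49, 5.48 and 4.76 in CC9pahari. CC9mus replicate 1 was the lowest array, and the mean of 4.00 was the highest of the broad loci. The input signal of this locus was also far above the rest, at 4.37 over the array median on the log2 scale, where the other broad loci had a median near 0 (−0.04 over all 100). It was the only broad locus with saturated spots, 73 in the IP channel and 0 in the input channel, on 9 of the 12 arrays. CC9mus replicate 3 had 10 such probes, CC9spretus replicates 1 and 2 had 7 and 9, the CC9dunni arrays 5 to 9 and the CC9pahari arrays 6 to 10, while CC9mus replicates 1 and 2 and CC9spretus replicate 3 had 0. The levels of the 9 arrays with saturated probes are therefore lower bounds, and the order of the lines is not settled at this locus.

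At chr11:103671166-103674200 (3035 bp, 12 probes) the level was 0.73, 2.43 and 3.37 in CC9mus, 2.72, 2.41 and 3.87 in CC9spretus, 3.04, 3.05 and 3.66 in CC9dunni and 2.94, 3.01 and 2.52 in CC9pahari. At chr15:76008957-76012444 (3488 bp, 26 probes) it was 0.43, 1.80 and 4.86 in CC9mus, 2.71, 3.09 and 2.44 in CC9spretus, 2.69, 2.62 and 1.48 in CC9dunni and 2.13, 2.06 and 2.64 in CC9pahari. CC9mus overlapped with each other line at both loci and its replicate 1 was the lowest array, and on chromosome 11 CC9dunni lay just above CC9pahari. All 26 probes of the chromosome 15 locus had a mean above 1 and 22 of them above 2, whereas the probes of the chromosome 11 locus differed most among themselves of all broad loci, with an SD of 1.67. At chr2:25432477-25435492 (3016 bp, 25 probes) the level was 0.54, 2.14 and 4.40 in CC9mus, 2.25, 1.82 and 1.99 in CC9spretus, 1.92, 1.92 and 1.34 in CC9dunni and 1.05, 1.04 and 1.41 in CC9pahari. Here the CC9spretus arrays lay above those of CC9pahari without overlap, while CC9mus again spanned the other lines. The mean level of the chromosome 11 locus ran from 1.83 to 3.17 over the other ways of processing. That of the chromosome 15 locus ran from 1.454 to 2.655 and that of the chromosome 2 locus from 1.03 to 2.05.

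The fifth in order, chr2:174122729-174126550 (3822 bp, 24 probes, of which 22 had a mean above 1), had a mean of 1.45, and the next, chr8:72409941-72413294, one of 1.06. The mean of the fifth ran from 0.82 to 1.75 over the other ways of processing, and thus to both sides of 1. The level at chr2:174122729-174126550 was 2.64, 4.42 and 2.36 in CC9spretus, 2.30, 2.32 and 0.59 in CC9dunni, 0.23, 0.42 and 1.74 in CC9mus and −0.02, 0.07 and 0.28 in CC9pahari. All CC9spretus arrays were above the 9 others and all CC9pahari arrays below 1, while CC9dunni and CC9mus overlapped. CC9spretus exceeded the mean of the other lines by 2.26 (standard error 0.50, 1.33 to 2.80 over the other ways of processing), which did not pass the test over all loci (adjusted p = 1, limma). The neighbouring broad locus 26170 bp further on, chr2:174152721-174156700, had a mean level of 0.32.

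The lowest broad locus was chr5:143576639-143580445 (3807 bp, 27 probes), with −0.41, −1.59 and −1.0 in CC9mus, −1.22, −0.91 and −0.44 in CC9spretus, −0.82, −0.75 and −0.31 in CC9dunni and −0.53, −0.62 and −0.28 in CC9pahari. Every array was below 0 and the lines overlapped, but its mean of −0.74 ran from −0.89 to 0.00 over the other ways of processing and was nearest to 0 without dim IP probes. At chr9:108727316-108730380 the mean was −0.61 (−0.81 to −0.14), at chr4:94716638-94720027 −0.59 (−0.74 to −0.21), at chr11:104092302-104095357 −0.55 (−0.70 to −0.35) and at chr8:11555042-11558710 −0.53 (−0.68 to −0.27). Of these 4, only chr11:104092302-104095357 had an array above 0, CC9dunni replicate 3 at 0.09. This low locus lies 418101 bp from the high locus chr11:103671166-103674200, and the high locus on chromosome 15 likewise had a broad neighbour at 540005 bp with a level of −0.19. The 4 remaining pairs of neighbours within 1 Mb were closer in level. The pair from chr8:72409941-72413294 had 1.06 and 0.75, the pair from chr8:11006867-11009954 had −0.17 and −0.53, the pair from chr11:119408102-119411119 had 0.01 and −0.07 and the pair from chr9:61217208-61222240 had −0.30 and −0.35.

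The longest loci had levels close to 0. The longest, chr11:63732747-63739146 (6400 bp, 29 probes), had a mean of −0.23, with −0.08, −0.43 and −0.23 in CC9mus and −0.39 to 0.00 on the other arrays. It was followed by chr11:74978752-74984231 (5480 bp, 0.33), chr11:120094109-120099509 (5401 bp, 40 probes, −0.07), chr8:94879507-94884802 (5296 bp, 0.00) and chr5:33772994-33778243 (5250 bp, 0.29). Next came chr9:61217208-61222240 (5033 bp, −0.30), chr5:139468793-139473744 (4952 bp, −0.18), chr14:22804113-22808996 (4884 bp, −0.01), chr5:58107014-58111756 (4743 bp, 0.10) and chr8:91564807-91569418 (4612 bp, −0.18). In this group chr5:33772994-33778243 varied most between arrays, with 0.06, 1.19 and 2.89 in CC9mus and −0.24 to 0.24 on the 9 others.

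At the limit of 3000 bp, the shortest members were chr18:35812025-35815030 with 3006 bp and a level of 0.29 and chr2:25432477-25435492 with 3016 bp and 1.82. Just outside were chr2:84726423-84729407 with 2985 bp and 0.13 and chr10:80598003-80600986 with 2984 bp and −0.04.

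Setting CC9mus against the average of the remaining 3 lines asks whether the control for the making of the lines has methylation levels of its own. With limma, 0 of the 100 broad loci differed after Benjamini-Hochberg adjustment over all 14580 loci, of which 0% were called, and the lowest adjusted p of a broad locus was 0.0514. At an unadjusted p under 0.05, limma found 28 broad loci higher in CC9mus, where 15.1% of all loci were, and 13 lower, where 17.2% of all loci were. All 3 CC9mus arrays lay above the 9 others at 5 broad loci (3.62% of all loci) and below them at 2 (3.32% of all loci). The difference was positive at 57 of the 100 broad loci and at 41.9% of all loci, and its median was 0.15 over the broad loci and −0.11 over all loci, but the median over the broad loci was −0.05 without CC9mus replicate 3, −0.02 with the scan period in the model and −0.08 with the period on arrays scaled to an equal spread. Without CC9mus replicate 1, the array with the smallest spread, limma called 55 of the broad loci, 37 higher and 18 lower, and 50.3% of all loci. Leaving out any other array gave 0 broad loci in limma (0.432% of all loci without CC9mus replicate 3 and 0% without each of the rest). The count of 0 also changed with the processing, to 12 without centring (11 higher and 1 lower, 7.9% of all loci), 14 at equal spread (10 and 4, 13.8%), 3 without dim input probes (2 and 1, 4.97%), 15 without dim IP probes (5 and 10, 15.1%) and 14 with the replicate number as a block (13 and 1, 7.95%). Within the later scan period, with 3 CC9mus arrays against 1 array of each other line, limma called 0 loci, and an unadjusted p under 0.05 was found for 6 broad loci and 11.6% of all loci.

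The position of each CC9mus array relative to the 9 others differed between the replicates. CC9mus replicate 1 was above the range of the 9 other arrays at 12 broad loci and below it at 14, replicate 2 at 33 and 35, and replicate 3 at 55 and 23. Over all loci these shares were 15.9% and 20.3%, 24.7% and 38.5%, and 31.4% and 35.9%. Spearman's rho between the mean level and the CC9mus difference was 0.563 over the 100 broad loci and 0.404 over all loci. Both values hold the CC9mus arrays, so a positive rho can arise without a relation and none is read from it.

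The largest CC9mus difference with all 3 arrays beyond the others was at chr14:80168173-80171320 (3148 bp, 25 probes). Its level was 0.47, 2.09 and 3.80 in CC9mus, 0.15, 0.02 and 0.24 in CC9spretus, 0.13, 0.03 and 0.15 in CC9dunni and 0.03, 0.03 and 0.08 in CC9pahari. CC9mus was above all others without overlap, and the 9 others lay within 0.02 to 0.24. The difference of 2.03 (standard error 0.49) had an adjusted p of 0.0515 (limma), which ranged from 0.000299 to 0.375 over the other ways of processing, with 7 of 29 under the threshold. Over these the difference ran from 1.19, without CC9mus replicate 3, to 2.85, without replicate 1. At chr11:119408102-119411119 (3018 bp, 20 probes) the level was 0.15, 0.69 and 2.21 in CC9mus and −0.65 to −0.01 on the 9 others, a difference of 1.33 (standard error 0.34, adjusted p = 0.0525 with a range of 0.0015 to 0.375 and 6 of 29 under the threshold, limma). This difference ran from 0.67 with normexp background correction to 1.77 without CC9mus replicate 1, and it was 0.74 without replicate 3. The remaining 3 of the 5, given here after their values were seen, were chr2:33494620-33498046 with a difference of 1.32, chr6:53767778-53771062 with 1.12 and chr2:73109734-73113031 with 0.45.

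The loci on the low side were chr16:92695711-92699202 and chr3:148650504-148653651. At chr16:92695711-92699202 (3492 bp, 19 probes) the level was −0.29, −0.78 and −0.53 in CC9mus, 0.12, 0.02 and 0.36 in CC9spretus, 0.10, 0.11 and 0.04 in CC9dunni and 0.11, 0.15 and 0.26 in CC9pahari. All CC9mus arrays were below 0 and all others above. The difference of −0.68 (standard error 0.15) had an adjusted p of 0.0514 (limma, 0.00157 to 0.679 over the other ways of processing, with 7 of 28 under the threshold), and the difference ran from −0.80 without CC9mus replicate 1 to −0.33 with normexp background correction. At chr3:148650504-148653651 the level was 0.04, 0.14 and −0.26 in CC9mus and 0.18 to 0.39 on the 9 others, a difference of −0.32 (standard error 0.14, adjusted p = 0.137 with a range of 0.0427 to 0.834 and 1 of 29 under the threshold, limma), which was −0.20 without CC9mus replicate 3. No locus in either group passed the test over all loci.

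Single probes gave calls where locus means did not. Of the 2372 probes of broad loci, limma called 132 higher in CC9mus (5.56%, against 2.76% of all 88737 probes) and 48 lower (2.02%, against 1.81% of all probes), with adjustment over the whole array. The higher probes lay in 39 loci and the lower in 29, with 4 loci holding both and 36 neither. Of the 132 higher calls, 67 (50.8%) came from the 10 loci with most, and 9 loci had a run of 3 or more neighbouring probes called higher. No locus had such a run of lower probes, the longest being 2, but fewer probes were called lower. These counts were not made over all loci, so no gathering of calls is read from them. Of the 25 probes of chr14:80168173-80171320, 14 were called higher and all 25 had a positive difference, between 0.51 and 3.55. Chosen after their values were seen, chr5:33772994-33778243 followed with 9 of 39 probes, chr8:94879507-94884802 with 8 of 36, chr2:33494620-33498046 with 6 of 16 and chr18:15220287-15223521 with 6 of 21, of which 5 were in a row. After scaling the arrays to an equal spread (equal median absolute deviation) the split was 231 higher and 134 lower, and 5031 higher and 5670 lower over all probes. The calls depended on single arrays: without CC9mus replicate 1 limma called 1096 probes of broad loci (46.2%, against 40.4% of all probes), without replicate 2 it called 0 (0.00451% of all probes), without replicate 3 it called 2 (0.14%), and without any 1 of the 9 other arrays, namely replicates 1 to 3 of CC9spretus, CC9dunni and CC9pahari, it called 0 (0% to 0.00113%). With the scan period or the slide in the model limma called 0 of all probes.

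The divergent lines were compared in the same way, each against the average of the rest. In limma, 0 broad loci were called for CC9spretus (0.00686% of all loci, 1 locus), for CC9dunni (0% of all loci) or for CC9pahari (0% of all loci). The difference was positive at 22 broad loci for CC9spretus (45% of all loci), 46 for CC9dunni (49.7%) and 48 for CC9pahari (64.8%). Its median over the broad loci was −0.134, −0.032 and −0.004, and −0.027, −0.002 and 0.109 over all loci. The CC9mus arrays are part of each of these differences. Their spread also entered the standard errors, since the fit shared its estimate of the spread among the lines. At chr12:81858291-81861644, for example, the SD was 0.75 in CC9mus and 0.02 in CC9dunni, and the standard error was 0.25 for either line. Counts of 0 therefore do not show that these lines are alike. Without CC9mus replicate 1, limma called 0 broad loci for CC9spretus (0.00686% of all loci), CC9dunni (0.0617%) and CC9pahari (0.11%). At an unadjusted p under 0.05, limma found 1 broad locus for CC9spretus (1.45% of all loci), 0 for CC9dunni (3.27%) and 1 for CC9pahari (3.68%). With the replicate number as a block, limma called 0 loci of the array for each of these lines, and at an unadjusted p under 0.05 it found 4 broad loci for CC9spretus (2.44% of all loci), 0 for CC9dunni (4.87%) and 1 for CC9pahari (4.84%). With the scan period in the model limma also called 0 loci, and the unadjusted counts were 1 (2.6%), 1 (3.43%) and 6 (7.98%). Without a block, the 1 of CC9spretus was chr2:174122729-174126550, which was also the only broad locus with all CC9spretus arrays above the others (0.192% of all loci). At 0 broad loci did all CC9spretus arrays lie below the others (0.247% of all loci). The 1 of CC9pahari was the same locus, where that line was lower by a difference of −1.78 without all its arrays standing apart. For CC9dunni, 0 broad loci had all 3 arrays above the 9 others (0.494% of all loci) and 1 had them below (0.583%). It was chr12:81858291-81861644, with 0.02, 0.04 and 0.05 in CC9dunni and 0.06 to 1.67 on the other arrays, a difference of −0.45 (adjusted p = 0.919, limma, −0.56 to −0.29 over the other ways of processing). For CC9pahari 0 were above (0.988% of all loci) and 1 was below (0.789%), chr18:35812025-35815030, with −0.25, −0.18 and −0.08 in CC9pahari and −0.01 to 2.22 on the others, a difference of −0.62 (adjusted p = 0.786, limma, −0.76 to −0.25). CC9mus replicate 3 was the highest array at both of these loci.

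A limit on the ratio with no test was also applied to single probes. The study described its limit of 2 as one on log2 ratios of differential methylation between samples, and combined it with a filter on Z-scores. Here the limit was set on the centred ratio of IP to input in each line, without a Z-score filter. The counts therefore do not follow the rule of the study. At a mean log2 ratio above 2 or below −2 over the 3 arrays of a line, 245 probes of broad loci were high in CC9mus (10.3% of the 2372, against 9.39% of all probes) and 73 were low (3.08%, against 3.25%). CC9spretus had 99 high (4.17%, against 5.16%) and 27 low (1.14%, against 1.08%). In CC9dunni 76 were high (3.2%, against 5.32%) and 9 low (0.379%, against 0.586%), and in CC9pahari 63 were high (2.66%, against 4.71%) and 5 low (0.211%, against 0.124%). No order of the lines is read from these counts, since those of CC9mus and the low counts of the other lines rested on single arrays. Those of CC9mus were 56 high and 50 low without replicate 3 (4.28% and 2.26% of all probes), 242 and 17 without replicate 2 (8.48% and 0.779%) and 494 and 221 without replicate 1 (17.7% and 10.8%). With 1 array left out, low probes numbered 2 to 82 in CC9spretus (0.236% to 3.46% of all probes). They numbered 5 to 50 in CC9dunni (0.248% to 2.74%) and 4 to 18 in CC9pahari (0.157% to 0.533%). Low probes can be dim as well as unmethylated, and the IP signal was not well above background on any array of the line at 21 of the 2372 probes in CC9mus, 74 in CC9spretus, 93 in CC9dunni and 133 in CC9pahari, where the ratio is an upper bound.

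The outer 500 bp of each locus were set against its centre. On every array the mean of the probes with a midpoint within 500 bp of either end, 4 to 11 per broad locus, minus the mean of its 5 to 32 other probes was taken, and the mean of the 4 line means was tested against 0 in limma over the 1215 loci of 1500 bp or more. The outer zone lay above the centre at 41 of the 100 broad loci (32.3% of the 1215 loci). It lay below the centre at 24 (34.2% of the 1215 loci), and 35 were not called. Of the 384 loci of 2000 to under 3000 bp, 34.9% were called above and 29.7% below, with a median difference of 0.03. The median difference was 0.11 over the broad loci, of which 61 were above 0, and −0.01 over all loci tested, of which 48.8% were above 0. The difference had the same sign on 12 of 12 arrays at 22 of the loci called above and 9 of those called below. Without the 3 CC9mus arrays, the counts were 42 above and 27 below (32.3% and 35.3% of the 1215 loci), and with the arrays of the earlier scan period alone they were 41 and 28 (31.8% and 40.3%). Between arrays, the differences of the 100 loci were correlated in rank (Spearman's rho 0.339 to 0.906 with a median of 0.696 over 66 pairs of arrays, each over 100 loci). Different probes are set against each other here and the same probes are on every array, so that the p-values measure repeatability over arrays only, and the response of the probes cannot be told apart from methylation.

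By distance from the nearer end, the median of the probe means over the 4 lines was 0.14 for 455 probes within 250 bp, 0.07 for 331 probes at 250 to 500 bp, and −0.05 for each of the bins from 500 to 1000 bp, from 1000 to 1500 bp and over 1500 bp. In CC9mus the medians of the first and last bin were 0.58 and 0.14, in CC9spretus 0.10 and −0.15, in CC9dunni 0.08 and −0.03 and in CC9pahari 0.05 and −0.10. The outermost bin was thus the higher in each line, and the difference between bins was not tested. The input signal also changed with position, with medians of −0.29, 0.00, −0.10, 0.06 and −0.01 on the log2 scale from the outermost to the innermost bin. It was lower in the outer zone than in the centre at 58 of the 100 loci, at 25 of the 41 called above and at 11 of the 24 called below, and the rank correlation of the differences in ratio and input was −0.154 over 100 loci. Its part in the gradient was not tested.

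The largest differences with the outer zone above the centre were at chr7:38554490-38558648 (4159 bp, 27 probes). The outer zone exceeded the centre by 0.68, 2.59 and 1.74 on the CC9mus arrays, 1.1, 0.68 and 1.25 in CC9spretus, 0.63, 0.90 and 1.25 in CC9dunni and 0.80, 0.75 and 1.92 in CC9pahari. All 12 arrays had the same sign and the lines overlapped, and the mean was 1.19 (0.58 to 1.43 over the other ways of processing, standard error 0.15, adjusted p = 2.3e-05, limma). It was followed by chr17:34255264-34259532 with 1.01 (standard error 0.11, adjusted p = 7.41e-06, limma) and chr8:72409941-72413294 with 1.00 (standard error 0.11, adjusted p = 7.71e-06, limma). Then came chr8:87227757-87231012 with 0.99 (standard error 0.11, adjusted p = 1.05e-05, limma) and chr16:9992246-9995933 with 0.87 (standard error 0.14, adjusted p = 0.00012, limma). The sign was shared by 12 of 12 arrays at each of these. In this order, the differences after the first ran from 0.43 to 1.20, 0.67 to 1.11, 0.76 to 1.31 and 0.36 to 1.00 over the other ways of processing. The loci on chromosome 8 held 12 probes each, the lowest number among the broad loci, with 6 or 7 of them in the outer zone.

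In the other direction, the outer zone of chr13:95652730-95656080 (3351 bp, 23 probes) differed from the centre by −0.58, −1.51 and −2.11 in CC9mus, −0.86, −0.64 and −1.58 in CC9spretus, −1.09, −1.21 and −1.46 in CC9dunni and −0.90, −1.13 and −1.91 in CC9pahari, with a mean of −1.25 (−1.36 to −0.42 over the other ways of processing, standard error 0.13, adjusted p = 7.71e-06, limma). At chr7:140313431-140316631 (3201 bp, 19 probes) it was −0.57, −1.82 and −2.32 in CC9mus, −1.38, −1.0 and −0.66 in CC9spretus, −1.20, −1.0 and −0.80 in CC9dunni and −1.21, −1.14 and −1.05 in CC9pahari, with a mean of −1.18 (−1.79 to −0.23, standard error 0.13, adjusted p = 7.71e-06, limma). All 12 arrays were below 0 at both loci and the lines overlapped. The mean level of the chr7:140313431-140316631 locus was −0.12, near the median of the array. Its ends were unlike, the left at −0.21 and the right at −1.57 relative to the centre. The locus with the largest CC9mus difference, chr14:80168173-80171320, was also called below, with −0.78 (standard error 0.09, adjusted p = 1.58e-05, limma) and 12 of 12 arrays. The last were chr2:25432477-25435492 with −0.70 (standard error 0.09, adjusted p = 3.66e-05, limma, 12 of 12 arrays) and chr17:25150594-25153849 with −0.56 (standard error 0.10, adjusted p = 0.000214, limma). At chr17:25150594-25153849 CC9dunni replicate 3 lay at 0.00 and the 11 other arrays below. Over the other ways of processing, chr14:80168173-80171320 ran from −0.87 to −0.39, chr2:25432477-25435492 from −1.02 to −0.52 and chr17:25150594-25153849 from −0.95 to −0.39.

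A call over both ends can hide ends that differ. Both ends were above the centre at 39 of the 100 loci, both were below at 22, and at 39 they lay on opposite sides. Over the 1215 loci these shares were 29.9%, 32.4% and 37.7%. Over the 396 loci of 2000 bp or more that were not broad they were 30.8%, 29% and 40.2%, and 18.4% had ends over 1 apart. Of the 41 loci called above, 35 had both ends above, and of the 24 called below, 16 had both ends below. The ends differed by a median of 0.466 and by over 1 at 20 loci (0.476 and 15.4% over the 1215 loci), of which 7 had no call, and 25 of the 35 loci without a call had ends on opposite sides. The 5 loci with the ends furthest apart were examined after this was seen. At chr11:103671166-103674200 the left end lay at −1.97 and the right end at 1.81 relative to the centre, and the left end itself was at 0.01 to 0.95 over the arrays while the right end was at 1.35 to 6.31. At chr5:58107014-58111756 the ends lay at −1.49 and 1.70, and at chr5:111845465-111849590 at −1.01 and 1.06. At these 3 loci the left end was below the right on 12 of 12 arrays, and the third had an outer zone at 0.03 in the mean of both ends (adjusted p = 0.784, limma). At chr17:34255264-34259532 the left end was at −0.09 and the right end at 1.56, with the left lower on 12 of 12 arrays. At chr2:25432477-25435492 the left end was at 0.03 and the right end at −1.66, and the left was lower on 0 of 12 arrays. The right end itself was at −0.37 to 2.39 over the arrays and the left end at 0.55 to 4.52. An end held 2 to 5 probes in these loci.

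The outer zone minus the centre differed in CC9mus from the other lines at 9 broad loci in limma, higher at 8 (4.77% of the 1215 loci) and lower at 1 (4.86% of the 1215 loci). At chr16:91225569-91228843 the outer zone lay below the centre in CC9mus, by −0.63, −1.59 and −2.0, and near it on the 9 others, at −0.32 to 0.42. The CC9mus arrays were lower than all others. At chr11:33100508-33104401 the outer zone lay above the centre in CC9mus, by 0.31, 1.03 and 1.54, and at −0.61 to 0.16 elsewhere. At chr17:63229259-63232449 it lay above the centre by 0.41, 2.05 and 2.18 in CC9mus and by 0.03 to 0.85 on the others, which overlapped with CC9mus replicate 1. At 0 broad loci did all CC9mus arrays have a sign opposite to that of all 9 others. On arrays scaled to an equal spread the split was 7 higher and 2 lower (51 and 50 of the 1215 loci), and with normexp background correction 1 and 2 (4 and 31 of the 1215 loci). These counts rested on single arrays, being 47 without CC9mus replicate 1 (35.2% of the 1215 loci), 1 without CC9mus replicate 2 or 3, 5 without replicate 1 or 2 of CC9spretus, 4 without CC9pahari replicate 1, 5 without CC9pahari replicate 2 and 5 without replicate 1, 2 or 3 of CC9dunni. In the settings after the first, 0.741% to 5.76% of the 1215 loci were called. The 1 locus called without CC9mus replicate 2 or 3 was a lower one in each case, with 0 higher. With the scan period in the model 3 broad loci were called (2.39% of the 1215 loci), and with the replicate number as a block 15 (11 higher and 4 lower, 14.8%). Among the 8 higher was chr17:39980411-39983633, where 10 of the 11 central probes had a saturated spot on some array, so that its outer minus centre values are not exact. Without the probes that had a saturated spot, an alternative chosen after seeing the data, 7 were higher and 1 lower (9.38% of the 1215 loci), and in the comparison of the outer zone with the centre 41 were above and 23 below (66.4%).

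For the other lines, limma called 0 broad loci in this comparison in CC9spretus (0% of the 1215 loci), CC9dunni (0%) and CC9pahari (0%). These tests too shared their estimate of the spread with CC9mus. At an unadjusted p under 0.05, limma found 1 for CC9spretus (2.3% of the 1215 loci), 12 for CC9dunni (8.72%) and 9 for CC9pahari (4.69%). With array weights limma called 6 broad loci for CC9dunni (1 higher and 5 lower, 4.69% of the 1215 loci) and 4 for CC9pahari (1 and 3, 1.89%). With the replicate number as a block limma called 0, and the unadjusted counts were 2 for CC9spretus (3.05%), 12 for CC9dunni (10.9%) and 11 for CC9pahari (5.93%).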

How the data were processed

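DNA methylation was measured in 12 samples, 3 of each line. The authors scanned 2-colour Agilent arrays and processed them with Feature Extraction 11.0.1.1, and the deposited signals are intensities after background subtraction and linear dye normalisation. The ratio that the authors deposited is a log10 value (IP to input) for each array, neither centred nor averaged. Positions were those of build mm9 in the array files. Signal over background stands in for depth on arrays.

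Here log2 ratios of the processed intensities were taken for 88737 probes, without outlier spots (up to 472 on an array), and centred by the median of each array. Locus means, probes and outer minus centre differences were fitted in limma 3.58.1 (R 4.3.3) with 4 line means on 12 arrays. The fits had 8 residual degrees of freedom, with Benjamini-Hochberg adjustment over all loci or probes. Simulated loci were used beforehand to test only the CC9mus comparison of locus means and that of the outer zone with the centre. Their simulated spread was the same in every line, unlike that of the arrays. Loci were named by rule: the 10 longest, the 5 highest and 5 lowest means, the largest line differences with 3 arrays beyond the 9 others (2 per direction without an adjusted p under 0.05), the 5 largest outer minus centre differences in each direction, and those next to the length limit. The members and lists were chosen with earlier results of these data known. Lists of cell type markers and gene families were not used, since the files pair no probes with genes.

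Alternatives were uncentred ratios, normexp (offset 50) on median signals, the deposited ratios, equal spread, dim probes left out, medians over probes, array weights, blocks for replicate number, slide and scan period, each array left out, gaps of 500 and 2000 bp, lengths of 2000 and 4000 bp, a minimum of 10 probes, outer zones of 250 and 750 bp, another centre and a level threshold of 1.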

Additional observations from a re-analysis of the deposited data

Results flagged for a closer look

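At 9 broad loci the difference between the outer 500 bp and the centre was not the same in CC9mus as in the other 3 lines, by a limma test of that difference over 1215 loci, of which 9.63% were called. Without CC9mus replicate 2 or 3 the count was 1 (0 higher and 1 lower in each case). It was 3 with the scan period in the model. CC9mus minus the others was −1.47 at chr16:91225569-91228843 (standard error 0.24, adjusted p = 0.00826). At chr17:39980411-39983633 it was 0.77 (adjusted p = 0.0158, limma), but 10 of its 11 central and 2 of its 8 outer probes had a saturated IP spot on some array, so that this value and its p are not exact. Without these probes it was −0.13 (adjusted p = 0.696, limma), with 1 central probe left. The locus chr8:94879507-94884802 gave 1.06 (adjusted p = 0.0171) and chr11:33100508-33104401 gave 1.13 (adjusted p = 0.0171), both from limma. The next values were 0.97 at chr8:28087123-28090275, 0.72 at chr8:91564807-91569418 and 1.16 at chr17:63229259-63232449, with adjusted p of 0.0252, 0.032 and 0.0366 in limma. The smallest margins were at chr7:37480210-37483802 with 0.87 and chr9:108727316-108730380 with 0.94 (adjusted p of 0.0443 and 0.0483, limma). All CC9mus arrays were scanned on a day of their own, and the part of the scan day cannot be told apart from that of the line.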

How the results depend on the processing

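Counts of calls that set CC9mus against the other lines moved with the processing, and the cause was not tested. Against 0 broad loci, limma called 12 without centring, 14 at equal spread, 3 without dim input probes and 15 without dim IP probes, where 7.9%, 13.8%, 4.97% and 15.1% of all loci were called, and 0 to 55 with each array left out (0% to 50.3% of all loci). Against 180 probes (132 higher, 48 lower), it called 1 with normexp (0.027% of all probes), 365 at equal spread (12.1%), 397 with array weights (13.3%), 0 with the slide or the scan period (0%) and 0 to 1096 with an array left out (0% to 40.4%). Against 9 loci for the outer zone minus the centre in CC9mus, it called 3 with normexp (2.88% of the loci tested), 4 with the slide (3.13%), 3 with the scan period (2.39%), 17 against probes within 500 bp of the middle (11%), 32 with an outer zone of 750 bp (23.7%) and 1 to 47 with an array left out (0.741% to 35.2%). The scan period at equal spread, chosen after seeing the data, gave 20 loci (4 higher and 16 lower), 490 probes (200 and 290) and 16 loci (9 and 7) in these 3 comparisons, against 30%, 21.4% and 14.4% of all loci or probes tested.

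Replicates of the same number deviated together in CC9spretus, CC9dunni and CC9pahari (correlations of 0.103 to 0.646, all 9 pairs over 0.1), whose replicates 1 and 2 were scanned in the earlier and replicate 3 in the later period. The 9 pairs with CC9mus, scanned in the later period only, did not (−0.397 to 0.198, 3 over 0.1), so the number does not pair CC9mus with the other lines. Among those other lines, replicate 1 of a line and replicate 2 of another, both of the earlier period, also deviated together (0.198 to 0.485). Pairs of the same number within that period were no closer (0.103 to 0.458), and pairs across the 2 periods deviated in opposite directions (−0.575 to −0.189). The correlations of these lines thus followed the scan period, and no part of the number beyond it was seen. A replicate block in the fit gave 14 loci (7.95% of all loci), 304 probes (8.34%) and 15 loci for the outer zone in CC9mus (14.8%). It did not change the counts above and below the centre (40 and 26, 68.1% of the loci tested) by over 1.5 times. The 0 calls for CC9spretus, CC9dunni and CC9pahari were not changed by it either.

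The joining gap and the length limit changed which loci were members. With a gap of 500 bp there were 59 broad loci, 21 called above and 14 below the centre (64.9% of the loci tested), 8 for the outer zone in CC9mus (7 higher and 1 lower, 11.3%) and 117 called probes. With 2000 bp there were 249 loci, 101 above and 52 below (66.8%), 48 for CC9mus (22 higher and 26 lower, 12.4%) and 427 probes. A limit of 2000 bp gave 480 loci, 174 above and 138 below, 53 for CC9mus (29 higher and 24 lower) and 574 probes, and a limit of 4000 bp gave 18 loci, 5 and 1, 2 (both higher) and 52 probes, where 66.5% and 9.63% of the loci tested were called. In each of these settings 4.57% of all probes were called. The split of 8 higher and 1 lower in CC9mus was thus not found at a gap or a limit of 2000 bp. With an array left out, loci above the centre numbered 39 to 45 and those below 23 to 28, where 60.7% to 70% of the loci tested were called. A minimum of 10 probes changed nothing, since every broad locus had more.

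All 336 values of named outer minus centre differences kept their direction and side of the threshold, but not their size, and chr7:140313431-140316631 ran from −1.79 against a centre within 500 bp of the middle to −0.23 with normexp. Of 115 values for the loci named for CC9mus, 94 stayed on their side and 21 passed the threshold, and of 262 mean levels 257 moved by less than the spread between replicates. At the loci named for CC9spretus, CC9dunni and CC9pahari no alternative passed (0 of 26, 26 and 27). The subsets of arrays for the outer zone and the later scan period, and leaving out saturated probes, were also chosen after seeing the data. Signal over background limits low ratios, and at a level threshold of 1 the shares of high and low probes were larger in each line.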
